A study of Mus musculus with 6 samples.

Results

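The genes described here encode the working parts of the lysosome. They are its hydrolases, their activator proteins, the proteins of its membrane, the proton pump that acidifies it, and the transcription factors and calcium channel that regulate it. The list has 38 genes, and members were found by their symbols in the GENCODE M21 annotation of GRCm38. Of the 38, 37 were among the 28293 genes measured, and Ctss was not analysed here. Expression was measured by sequencing of polyadenylated RNA in dermal fibroblasts of a mouse cell line, in 3 libraries labelled as Lap2alpha knockout (KO) and 3 labelled as wild type (WT). The medium of both groups was DMEM supplemented by fetal calf serum, penicillin and streptomycin. LAP2alpha is an isoform of lamina-associated polypeptide 2 that associates with lamin A/C inside the nucleus. The labels do not say how the knockout was made or whether the replicates were separate cultures or clones. The p-values therefore measure only the spread between these libraries, which may be technical, and a difference between lines or clones cannot be told apart from the effect of the genotype.

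Lysosomes degrade proteins, glycans and lipids that arrive by endocytosis or autophagy. The enzymes work at acid pH, which is kept by the vacuolar H+-ATPase, a pump with a cytosolic V1 sector that splits ATP and a membrane V0 sector that carries protons. TFEB and TFE3, transcription factors of the MiT/TFE family, bind CLEAR elements in the promoters of many lysosomal genes, and the kinase complex mTORC1 holds them in the cytoplasm when nutrients are plentiful. Fibroblasts also use lysosomal cathepsins to digest collagen that they have taken up.

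The KO libraries held 25768678 to 27281473 counts and the WT libraries 22159339 to 26553616 counts. Pairs of libraries had Pearson correlations of log2(CPM + 1) of 0.996 to 0.998 inside a group and of 0.933 to 0.938 across groups. CPM is the count of a gene per 1e+06 counts in its library. Tmpo, the gene that encodes all LAP2 isoforms, had 135, 122 and 131 CPM in KO and 254, 249 and 252 CPM in WT, a log2 fold change, KO over WT, of −1.04 (± 0.0549 SE, adjusted p in edgeR = 4.9e-08). Its count does not separate the alpha isoform. Genes are called where edgeR's quasi-likelihood test gave a Benjamini-Hochberg adjusted p under 0.05. KO and WT differed widely, with 75.1% of 15081 tested genes called, and every count below is to be read against that share. Of the 11 fibroblast markers examined, all had counts in both groups, though Lum averaged only 0.0681 CPM in WT. Their summed levels were 22799 to 24232 CPM in KO and 6040 to 6416 CPM in WT. Col1a2 alone averaged 10955 CPM in KO and 1788 CPM in WT. Of the 9 markers that passed the low-count filter in both groups, 8 rose while Thy1 fell. Lum and Fap passed through their KO libraries only. The summed level of the 5 listed keratinocyte markers that were measured was 4.90 to 6.49 CPM in KO and 6.82 to 8.53 CPM in WT. The 5 endothelial markers measured summed to 0.233 to 0.880 CPM in KO and 1.3 to 1.47 CPM in WT. The 4 melanocyte markers summed to 0.367 to 0.905 CPM in KO and 1.17 to 2.98 CPM in WT.

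Most lysosomal genes were higher in KO. Of the 36 members that passed the low-count filter, 28 rose, 4 fell and 4 were not called, where 37.7% of all tested genes rose and 37.5% fell. The members that fell were Ctsl, Gusb, Atp6v1h and Atp6ap1, and those not called were Ctsz, Cd68, Atp6v1b2 and Tfeb. CPM values of KO and WT were fully separate for 33 members (76.8% of all tested genes), of which 29 were higher in every KO library (42.2% of all tested genes) and 4 lower (34.6%). CPM uses library totals, without the TMM scaling used in the test. The median log2 fold change of the members was 0.64, against 0.01 over all tested genes. The median absolute log2 fold change was 0.71 for the members and 0.58 for all tested genes. At least 2-fold increases were called for 11 members (16.7% of tested genes), and at least 2-fold decreases for none of the 36 (11.4% of tested genes). Ctsk passed the filter only through its KO libraries and so had to differ, and without it 27 of 35 tested members rose, 10 of them at least 2-fold. The remaining measured member, Ctsc, which encodes the dipeptidyl peptidase that activates granule serine proteases, had 0 counts in KO, which allows up to 0.0377 CPM, and 1 count in WT.

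**Figure D1:**
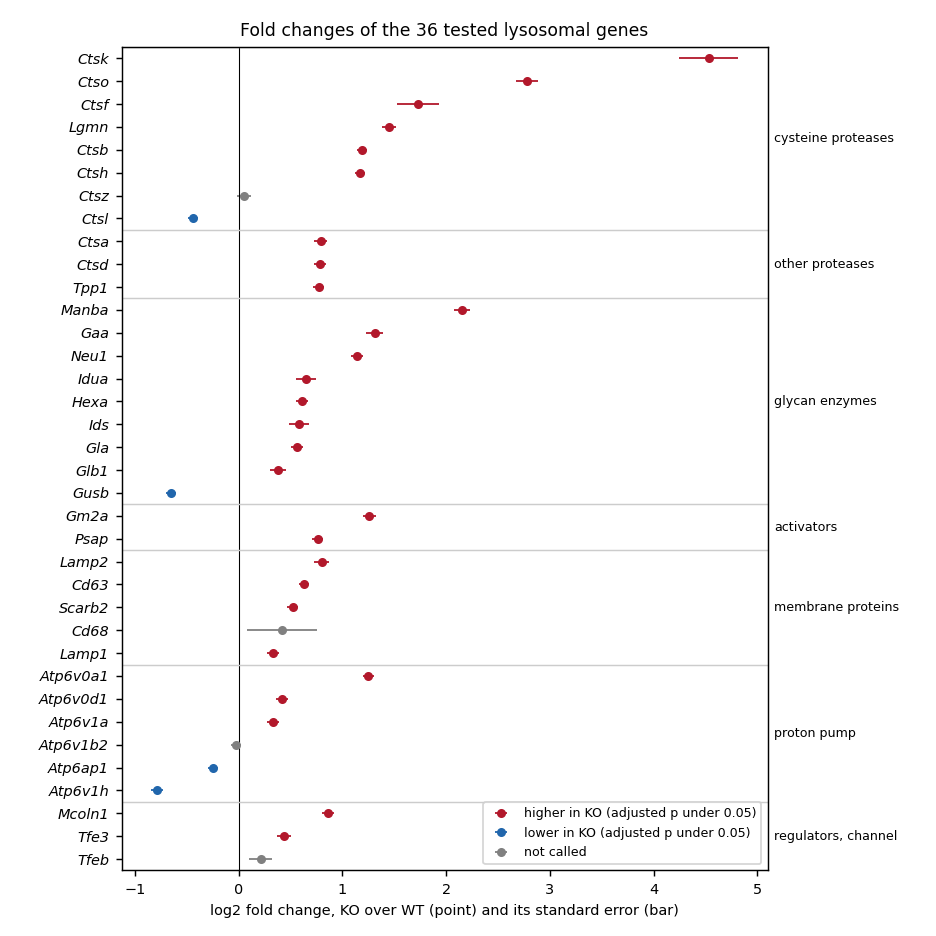
Log2 fold change (KO over WT) of the 36 tested lysosomal genes, grouped by role. Points are edgeR estimates and bars their standard errors. The 28 red genes lie right of 0, the 4 blue genes left of it, and Ctsk, which passed the low-count filter through KO only, lies farthest to the right at 4.53.

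As a share of all counts, the members took 1.05 ± 0.0116% in KO libraries, against 0.696 ± 0.0191% in WT libraries (SD, n = 3 each). To compare levels between genes, counts were also divided by exonic length and scaled to TPM. On that scale Lamp1 was the most abundant member in both groups, followed by Psap and then Cd63. Lamp1 stood at 1436 ± 67.4 TPM in KO and 1084 ± 73.3 TPM in WT. The lowest tested member was Ctsf in KO (1.3 ± 0.189 TPM) and Ctsk in WT (0.240 ± 0.122 TPM).

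**Figure D2:**
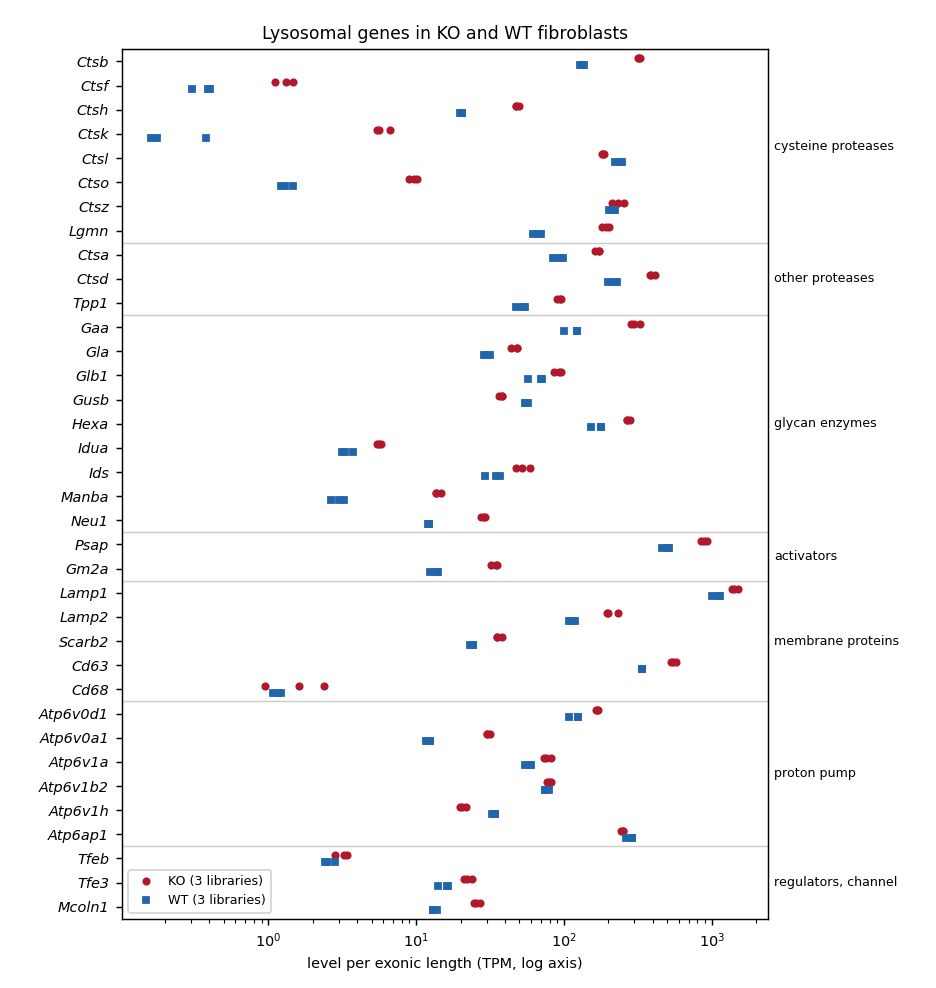
Level per exonic length (TPM, log axis) of the 36 tested lysosomal genes in each library, with KO as red circles above WT as blue squares. The 2 groups are separate for most genes and intermingle for Ctsz, Cd68 and Atp6v1b2.

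Of the 3 regulators, Tfe3 and Mcoln1 rose and Tfeb was not called. Tfe3 had 89.3, 95.9 and 100 CPM in KO and 60.9, 69.3 and 69.4 CPM in WT. Every KO library was above every WT library, and Tfe3 rose 1.35-fold (log2 fold change 0.44 ± 0.0680 SE, adjusted p in edgeR = 0.00017). Tfeb stood at 7.37, 9.01 and 8.42 CPM in KO and 6.68, 6.36 and 7.22 CPM in WT. By library totals these values do not overlap either, but the difference was not called (log2 fold change 0.21 ± 0.108 SE, adjusted p in edgeR = 0.096). With the TMM scaling factors used in the test (1.028 for KO replicate 1 and 0.9806 for WT replicate 3), the values of these libraries change order, so the groups overlap. Tfeb was called when libraries were scaled by their totals alone (edgeR adjusted p = 0.033) or by upper quartile (edgeR adjusted p = 0.04), and when KO replicate 1 was left out (edgeR adjusted p = 0.03). Mcoln1, which encodes the lysosomal calcium channel mucolipin-1, had 88.1, 87.1 and 92.8 CPM in KO and 46.2, 48.7 and 44.8 CPM in WT. It rose 1.82-fold (log2 fold change 0.86 ± 0.0579 SE, adjusted p in edgeR = 2.8e-07). Per length, Mcoln1 (25.7 ± 1.11 TPM in KO and 13.3 ± 0.507 TPM in WT) and Tfe3 (22.3 ± 1.36 TPM in KO and 15.6 ± 1.37 TPM in WT) were more abundant than Tfeb (3.17 ± 0.299 TPM in KO and 2.58 ± 0.203 TPM in WT). The RNA level says nothing of where the TFEB and TFE3 proteins were in the cell.

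The core of the CLEAR element, CACGTG, is frequent in the promoters of the members. RefSeq promoter windows on GRCm38.p6, from 250 bases before to 50 bases after the transcript start, were found for 34 of the 38 members. The palindrome CACGTG occurred in windows of 12 of these 34 genes (35.3%), against 8.09% of all 27025 genes in the table and 11.6% of the 10030 tested genes found there. The longer form TCACGTG, searched on both strands and always containing a CACGTG, was found for 10 members (29.4%), 4.29% of all genes and 6.97% of tested genes. The motif was not particular to the members. Of 92 genes with windows in the wider lysosomal lists described below, 22.8% had CACGTG and 21.7% the longer form. Stretches from 7 of these promoters are shown, which hold the motif upstream of called proteases, glycan enzymes, a membrane protein and the channel gene. They were chosen from genes that rose in KO, so the rise of these genes is not a result about the motif. They are written 5′ to 3′ on the strand of the gene, with CACGTG in capitals, and all end before the RefSeq start.
Lamp1: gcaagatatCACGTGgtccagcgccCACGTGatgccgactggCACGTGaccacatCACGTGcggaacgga
Mcoln1: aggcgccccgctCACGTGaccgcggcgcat
Gla: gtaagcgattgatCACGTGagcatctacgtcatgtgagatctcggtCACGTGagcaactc
Glb1: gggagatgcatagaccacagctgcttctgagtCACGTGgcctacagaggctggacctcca
Gaa: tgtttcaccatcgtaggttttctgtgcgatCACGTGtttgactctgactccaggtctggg
Ctsd: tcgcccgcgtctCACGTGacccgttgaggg
Lgmn: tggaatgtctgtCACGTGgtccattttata

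The Lamp1 stretch lies at chr8:13159091-13159160 on the plus strand and holds 4 copies within the 70 bases before the start. The Mcoln1 stretch (chr8:3500462-3500491, plus strand) and the Ctsd stretch (chr7:142387908-142387937, minus strand) each show 1 of the 2 copies in their windows. The Gla stretch (chrX:134601186-134601245, minus strand) shows 2 copies. The Glb1 stretch (chr9:114400998-114401057, plus strand), the Gaa stretch (chr11:119267793-119267852, plus strand) and the Lgmn stretch (chr12:102439124-102439153, minus strand) hold 1 each. The other members with CACGTG were Ctsa, Atp6v0d1, Atp6v1a, Ctsl and Ctsf, of which Ctsl and Ctsf lack the longer form. Of the 12 genes with CACGTG, 11 rose and Ctsl fell (median log2 fold change 0.67). Of the 20 tested genes with a window and no CACGTG, 15 rose, 2 fell and 3 were not called (median 0.64). Those 15 include Ctsk, which passed the low-count filter through KO only and so had to differ. The difference between these sets was not tested. A match is a description of the sequence and does not show that a factor was bound.

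Among cysteine proteases that passed the low-count filter in both groups, 5 of 7 rose at least 2-fold, Ctsl fell and Ctsz was not called. Ctsk, the eighth gene of the class in the fit, passed through its KO libraries only. Ctsk, which encodes cathepsin K, a collagen-degrading protease best known from osteoclasts (ENSMUSG00000028111, chromosome 3, 95499256 to 95509362), had 3.89, 4.68 and 3.73 CPM in KO and 0.271, 0.113 and 0.122 CPM in WT. These levels stand for 106, 124 and 96 counts in KO and 6, 3 and 3 counts in WT. Every KO library was above every WT library, but no WT library reached the low-count filter, so the difference is given as a description with no test. Other genes of the osteoclast list were low at the same time. Acp5 averaged 0.0992 CPM in KO and had 0 counts in WT, and Dcstamp (0 CPM in KO and 0.0301 CPM in WT), Calcr (0.0129 CPM in KO and 0 CPM in WT) and Oscar (0.0126 CPM in KO and 0.0301 CPM in WT) were near 0. The summed level of the 5 osteoclast genes measured was 22.2 to 25.6 CPM in KO and 0.122 to 0.587 CPM in WT. Nearly all of it in KO came from Mmp9, a secreted gelatinase, which averaged 24.3 ± 1.81 CPM in KO, against 0.251 ± 0.144 CPM in WT. The part of such cells in the level of Ctsk was not tested, and in bulk RNA more cells of a type and more RNA per cell cannot be told apart.

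Ctso, encoding the little-studied cathepsin O (chromosome 3, 81932601 to 81956725), had 23.7, 23.2 and 21.0 CPM in KO and 3.57, 2.86 and 3.00 CPM in WT. It rose 6.85-fold (log2 fold change 2.78 ± 0.105 SE, adjusted p in edgeR = 5.2e-09). Ctsf, encoding cathepsin F (chromosome 19, 4855130 to 4860918), had 3.04, 2.60 and 3.41 CPM in KO and 0.722, 0.941 and 0.892 CPM in WT, and rose 3.33-fold. Ctso and Ctsf were among the least abundant members. Lgmn, encoding legumain, which cuts after asparagine and processes other cathepsins (chromosome 12, 102394084 to 102439813), had 191, 209 and 214 CPM in KO and 67.4, 75.3 and 70.2 CPM in WT. It rose 2.73-fold (log2 fold change 1.45 ± 0.0645 SE, adjusted p in edgeR = 1.5e-08), and its promoter stretch is among those printed above. Ctsh, encoding the aminopeptidase cathepsin H (chromosome 9, 90054152 to 90076089), had 103, 99.6 and 96.8 CPM in KO and 41.9, 42.3 and 41.8 CPM in WT, and rose 2.25-fold.

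Ctsb and Ctsl changed order. By TPM among the members, Ctsb ranked 5 in KO and 9 in WT, and Ctsl ranked 12 in KO and 5 in WT. Ctsz lay between them in both groups (9 in KO and 7 in WT), and Ctsd lay above Ctsb in both (4 in KO and 6 in WT). Ctsb, encoding cathepsin B (ENSMUSG00000021939, chromosome 14, 63122462 to 63145923), had 897, 892 and 898 CPM in KO and 363, 377 and 374 CPM in WT. It rose 2.29-fold (log2 fold change 1.19 ± 0.0462 SE, adjusted p in edgeR = 6.1e-09). Ctsl, encoding the endopeptidase cathepsin L (chromosome 13, 64359337 to 64370890), had 549, 548 and 555 CPM in KO and 676, 738 and 711 CPM in WT, and fell 1.36-fold (log2 fold change −0.44, edgeR adjusted p = 1.6e-05). Per length, Ctsb exceeded Ctsl by 1.74 to 1.75 times in the KO libraries, whereas the ratio of Ctsb to Ctsl was 0.548 to 0.576 in the WT libraries. Ctsb made up 31.5 to 33.4% of the summed TPM of the cysteine proteases in KO and 19.4 to 20.1% in WT. Ctsl made up 18.1 to 19.1% in KO and 34.9 to 35.4% in WT. The pair was picked after its values were seen. Genes on the other strand overlap 26.8% of the exonic length of Ctsl and 12.8% of that of Ctsb. Ctsz, encoding the carboxypeptidase cathepsin Z, had 155 ± 13.3 CPM in KO, against 142 ± 5.85 CPM in WT, and was not called (log2 fold change 0.05, edgeR adjusted p = 0.57), with a change of −0.03 when KO replicate 3 was left out.

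The proteases of other classes rose by similar amounts. Ctsd, encoding the aspartic protease cathepsin D (chromosome 7, 142375911 to 142388038), was the most abundant of them at 393 ± 14.4 TPM in KO and 216 ± 16.1 TPM in WT. It had 413, 424 and 439 CPM in KO and 219, 249 and 235 CPM in WT, and rose 1.72-fold (log2 fold change 0.78 ± 0.0590 SE, adjusted p in edgeR = 6.6e-07). Ctsa, the serine carboxypeptidase that protects beta-galactosidase and sialidase, rose 1.73-fold to 369 ± 14.6 CPM in KO, against 202 ± 14.5 CPM in WT (n = 3). Of its exonic sequence 17.4% lies opposite Pltp and Neurl2. Tpp1, encoding tripeptidyl peptidase 1, rose 1.71-fold to 222 ± 6.96 CPM in KO, against 123 ± 6.97 CPM in WT.

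Enzymes that degrade glycans rose in 8 of 9 cases. Manba, encoding beta-mannosidase (ENSMUSG00000028164, chromosome 3, 135485611 to 135571404), had 47.4, 44.6 and 43.2 CPM in KO and 8.71, 9.75 and 10.3 CPM in WT. It rose 4.45-fold (log2 fold change 2.15 ± 0.0760 SE, adjusted p in edgeR = 3.4e-09), the largest change of this class. Gaa, encoding the acid alpha-glucosidase that breaks down glycogen (chromosome 11, 119267887 to 119285454), had 621, 659 and 716 CPM in KO and 224, 273 and 264 CPM in WT. It rose 2.49-fold (log2 fold change 1.31 ± 0.0814 SE, adjusted p in edgeR = 1.5e-07) and ranked 6 among the members by TPM in KO, against 11 in WT. Neu1, encoding sialidase 1 (chromosome 17, 34931253 to 34935953), had 47.0, 49.7 and 49.8 CPM in KO and 21.0, 21.1 and 20.7 CPM in WT, and rose 2.21-fold. NEU1 works in a complex with CTSA and the beta-galactosidase GLB1. All 3 genes of that complex rose, with log2 fold changes of 1.14 for Neu1, 0.79 for Ctsa and 0.38 for Glb1. The 3 genes are few, and 28 of the 36 tested members and 37.7% of all tested genes rose.

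Hexa, the alpha subunit of beta-hexosaminidase, was the most abundant glycan enzyme by mean TPM over the 6 libraries. In KO, Gaa stood above Hexa (302 ± 23.2 against 273 ± 8.06 TPM), and in WT below it (115 ± 13.3 against 169 ± 15 TPM). Hexa had the following levels by library totals. They were 245, 251 and 257 CPM in KO and 142, 165 and 160 CPM in WT, and Hexa rose 1.53-fold (log2 fold change 0.61 ± 0.0614 SE, adjusted p in edgeR = 6.1e-06). The Hexa annotation has 12.8% of its exonic sequence opposite Tmem202. The other increases were in Idua (log2 fold change 0.65) and Ids (0.58), which act in turn on heparan and dermatan sulfate, Gla (0.56), the alpha-galactosidase that cleaves globotriaosylceramide, and Glb1. Gusb, encoding beta-glucuronidase, which also acts on glycosaminoglycans, was the exception. It fell to 78.4 ± 1.37 CPM in KO, against 117 ± 1.21 CPM in WT (n = 3), which is 1.57-fold lower (log2 fold change −0.65 ± 0.0482 SE, adjusted p in edgeR = 5.6e-07).

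Both activator proteins, which present lipids to hydrolases, rose. Psap encodes the precursor of the saposins (chromosome 10, 60277627 to 60302597). It had 1060, 1128 and 1165 CPM in KO and 596, 642 and 637 CPM in WT, and rose 1.69-fold (log2 fold change 0.76 ± 0.0561 SE, adjusted p in edgeR = 5.7e-07). Gm2a, the activator that works with HEXA on ganglioside GM2 (chromosome 11, 55098115 to 55113029), had 66.3, 62.1 and 65.4 CPM in KO and 24.1, 26.7 and 25.8 CPM in WT. It rose 2.40-fold (log2 fold change 1.26 ± 0.0607 SE, adjusted p in edgeR = 2.6e-08).

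Of the 5 membrane proteins 4 rose, all by less than 2-fold. Lamp1, an abundant glycoprotein of the limiting membrane (chromosome 8, 13159161 to 13175338), had 1744, 1716 and 1842 CPM in KO and 1255, 1390 and 1367 CPM in WT. It rose 1.25-fold (log2 fold change 0.33 ± 0.0577 SE, adjusted p in edgeR = 0.00045), the smallest called increase of this class. Its promoter window held the most CACGTG copies of any member with a window. Whether the number of copies goes with the fold change was not tested. Lamp2, which has splice forms used in different kinds of autophagy that the counts do not separate, rose 1.74-fold to 919 ± 83 CPM in KO, against 502 ± 27.9 CPM in WT (n = 3). Cd63, a tetraspanin of late endosomes, rose 1.54-fold to 934 ± 39.7 CPM in KO, against 574 ± 12.1 CPM in WT. A processed pseudogene of Cd63 has counts of its own, 24.1 CPM in KO and 15.4 CPM in WT on average, so some reads may be shared between them. Scarb2, the receptor that carries glucocerebrosidase to lysosomes, rose 1.43-fold to 105 ± 4.48 CPM in KO, against 69.4 ± 2.53 CPM in WT.

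Cd68, the macrophage-enriched relative of the LAMP proteins, was scarce and not called. It had 0.550, 0.943 and 1.36 CPM in KO and 0.632, 0.678 and 0.689 CPM in WT (log2 fold change 0.42 ± 0.336 SE, adjusted p in edgeR = 0.27), and the WT values lay within the KO range. Without KO replicate 1 its log2 fold change was 0.71 and it was called (adjusted p in edgeR = 0.05 after rounding). Of 11 macrophage markers 8 were measured, and their summed level was 9.62 to 11.3 CPM in KO and 3.73 to 4.82 CPM in WT. Most of that was Cd14 (7.40 ± 0.450 CPM in KO and 4.02 ± 0.674 CPM in WT) and Csf1r (2.40 ± 0.482 CPM in KO and 0.216 ± 0.0975 CPM in WT), of which Cd14 rose. Csf1r passed the low-count filter through its KO libraries only and so had to differ. Mrc1 averaged 0.252 CPM in KO and 0.0797 CPM in WT, and Ptprc, Spi1, Aif1, Fcer1g and Lyz2 were each below 0.1 CPM on average in both groups. The part of such cells in these levels was not tested.

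Subunits of the proton pump did not move in 1 direction. Of the 6 members, Atp6v0a1, Atp6v0d1 and Atp6v1a rose, Atp6v1h and Atp6ap1 fell, and Atp6v1b2 was not called (median log2 fold change 0.15). Atp6v0a1, an isoform of the large membrane subunit a (ENSMUSG00000019302, chromosome 11, 101009452 to 101063719), had 91.2, 95.8 and 91.0 CPM in KO and 36, 37.6 and 36.9 CPM in WT. It rose 2.38-fold (log2 fold change 1.25 ± 0.0513 SE, adjusted p in edgeR = 8.8e-09). Atp6ap1, an accessory subunit (chromosome X, 74297097 to 74304721), was the most abundant of the 6 per length, with 347, 354 and 338 CPM in KO and 376, 402 and 393 CPM in WT. It fell 1.19-fold (log2 fold change −0.25 ± 0.0478 SE, adjusted p in edgeR = 0.00074).

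The remaining pump members changed moderately. Atp6v1h, the subunit through which V1 is controlled, fell 1.73-fold to 92.2 ± 4.70 CPM in KO, against 151 ± 4.91 CPM in WT (n = 3; log2 fold change −0.79, edgeR adjusted p = 4.1e-07). The catalytic subunit gene Atp6v1a rose 1.25-fold to 214 ± 11.4 CPM in KO, against 162 ± 9.21 CPM in WT, while Atp6v1b2, whose product forms the ATPase head together with it, had 193 ± 3.91 CPM in KO and 187 ± 3.78 CPM in WT (log2 fold change −0.03, edgeR adjusted p = 0.60). The sign for Atp6v1b2 was positive under library totals alone (0.05) and under upper-quartile scaling (0.04). Atp6v0d1 rose 1.33-fold.

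Of the 18 other pump genes listed, 13 were tested, and 8 of these fell, 4 rose and Atp6v0c was not called (median log2 fold change −0.29). Together with the members, 7 of 19 tested pump genes rose and 10 fell (median −0.16), where 37.7% of all tested genes rose and 37.5% fell. The falls were all smaller than 2-fold and included Atp6v0a2 (log2 fold change −0.56), Atp6v0b (−0.53) and, named after their values were seen, the V1 subunits Atp6v1f, Atp6v1g1 and Atp6v1c1. Tcirg1 (0.57) and Atp6v1e1 (0.39) rose. Counts of Atp6v0c, the proton-carrying ring subunit, may be shared with a processed pseudogene that averaged 138 CPM in KO and 148 CPM in WT.

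The isoforms of subunit a, which set where in the cell the pump is placed, differed in direction. Per length, Atp6v0a1 stood at 30.7 ± 0.568 TPM in KO and 12.2 ± 0.427 TPM in WT, and Tcirg1, the a3 isoform, at 43.6 ± 5.25 TPM in KO and 27.8 ± 2.77 TPM in WT. Atp6v0a2 stood at 13.8 ± 0.458 TPM in KO and 19.3 ± 0.794 TPM in WT. Atp6v0a4 was scarce at 0.603 ± 0.0357 TPM in KO and 0.374 ± 0.0438 TPM in WT. The 4 isoforms summed to 88.7 ± 5.24 TPM in KO and 59.7 ± 3.92 TPM in WT, and the other pump genes summed to 1823 ± 4.47 TPM in KO and 1979 ± 24.5 TPM in WT (n = 3). Atp6v0a2 was the second most abundant isoform in WT and the third in KO.

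**Figure D3:**
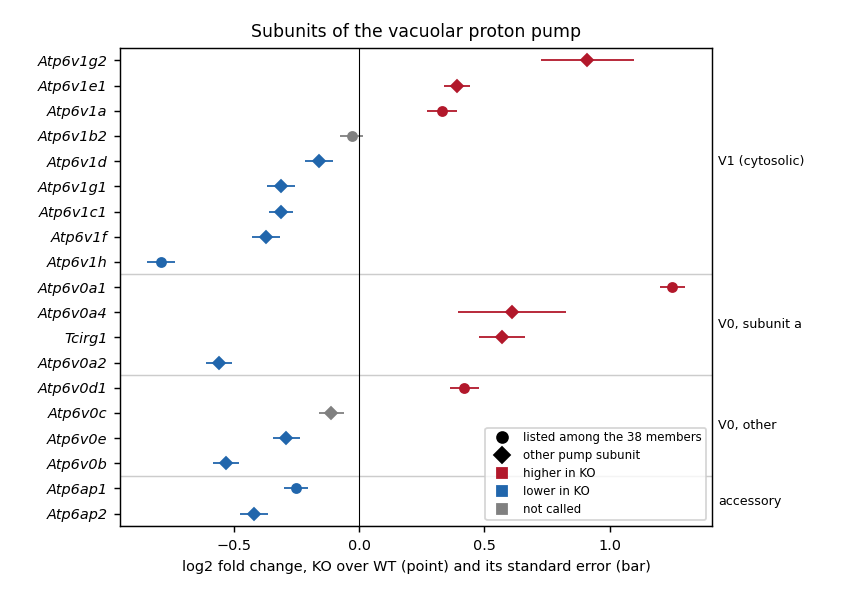
Log2 fold change (KO over WT) of the 19 tested pump genes with standard errors, by sector. Circles are the 6 listed members and diamonds the other subunits, and colour gives the call. Subunit a genes reach 1.25 to the right, while most other subunits lie between 0 and −0.79.

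Over all wider lists of lysosomal genes, 104 of 119 were tested, and 66 rose, 24 fell and 14 were not called (median log2 fold change 0.44). Of all tested genes 37.7% rose and 37.5% fell, and each list below is to be read against these shares. Calls were made for 86.5% of the tested wider genes and 79.4% of the other hydrolases, against 75.1% of all tested genes. Of 34 tested other hydrolases 23 rose, 4 fell and 7 were not called (median log2 fold change 0.47). Arsg, an arylsulfatase, rose to 11.8 ± 0.683 CPM in KO, against 2.21 ± 0.262 CPM in WT (n = 3; log2 fold change 2.34), and Man2b2, an alpha-mannosidase, rose to 107 ± 7.53 CPM in KO, against 21.4 ± 1.80 CPM in WT (2.24). Galc, the galactosylceramidase, fell 2.12-fold to 17.5 ± 1.58 CPM in KO, against 35.1 ± 1.27 CPM in WT, and Prcp fell as well (−0.57).

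Of 26 other membrane proteins tested, 18 rose, 5 fell and 3 were not called (median log2 fold change 0.63). The cation channel gene Tpcn1 (1.54) and the transporter gene Abca2 (1.32) had the largest increases, and Ostm1 (−0.54), the partner of the chloride exchanger CLCN7, and Slc15a4 (−0.44) the largest decreases under the naming rule. Genes that sort enzymes to the lysosome rose in 9 of 13 cases and fell in 2. Sort1, which encodes the sorting receptor sortilin, rose by a log2 fold change of 1.21, while Gnptab, a subunit of the enzyme that adds the mannose 6-phosphate tag, fell to 47.4 ± 0.430 CPM in KO, against 69.9 ± 2.38 CPM in WT (n = 3; log2 fold change −0.64), and Gga3 fell (−0.33).

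All 3 tested genes for inhibitors of cysteine cathepsins rose along with most of the cathepsins. Cst6, cystatin E/M, had 119, 125 and 129 CPM in KO and 19.5, 20.6 and 20.0 CPM in WT, and rose 5.88-fold (log2 fold change 2.56 ± 0.0583 SE, adjusted p in edgeR = 2.9e-10). Cstb, the cytosolic cystatin B, rose by a log2 fold change of 0.52, and Cst3, the secreted cystatin C, by 0.19. The 3 genes are few, and 75.1% of all tested genes were called.

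In the list of MiT/TFE relatives and mTORC1 components, 9 of 15 rose, 5 fell and 1 was not called (median log2 fold change 0.26). The Ragulator subunit genes Lamtor2 (0.77) and Lamtor4 (0.65), which anchor mTORC1 on the lysosome, had the largest increases at 5 CPM or more. The GTPase genes Rragc and Rraga, which recruit mTORC1 to Ragulator, both fell. Rragc fell to 121 ± 5.93 CPM in KO, against 177 ± 6.27 CPM in WT (n = 3; log2 fold change −0.62), and Rraga to 56.8 ± 3.14 CPM in KO, against 70.6 ± 2.76 CPM in WT (−0.39). Mitf, the MiT/TFE member best known from melanocytes and chosen after its value was seen, rose 2.62-fold but stayed at 3.66 ± 0.703 CPM in KO, against 1.33 ± 0.179 CPM in WT. Differences between these lists were not tested.

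**Figure D4:**
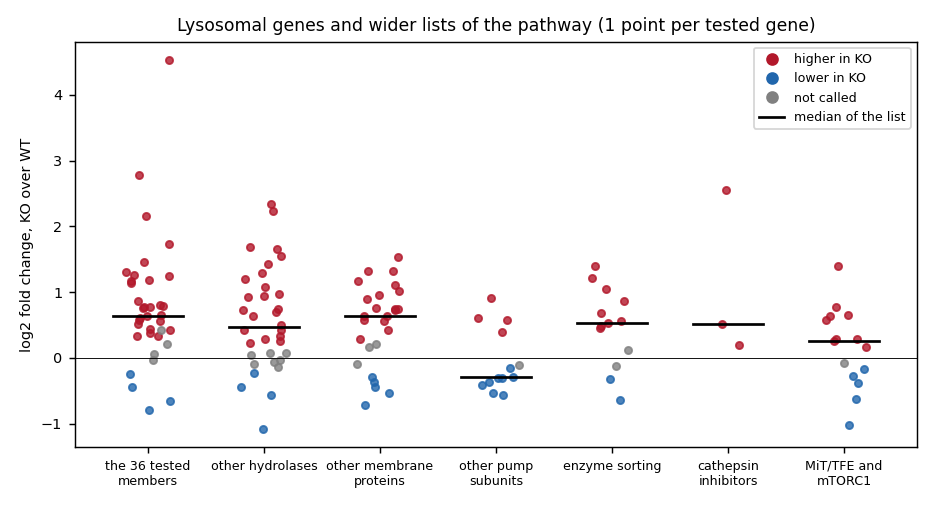
Log2 fold change (KO over WT) of each tested gene in the list of 36 members and in 6 wider lists, coloured by call, with the list median as a black bar. The medians lie between 0.26 and 0.64 except for the other pump subunits, whose median is −0.29.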

How the data were processed

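The deposited files hold raw counts per Ensembl gene, 1 file per library, made by the authors from reads aligned to GRCm38 by STAR 2.7.10b, per the submitters' processing notes. The counting program, annotation release and strand setting were not named (not given in the sources used here), so for the 8 members whose exons overlap genes on the opposite strand (0.694 to 26.8% of their exonic length) the counts may include reads of those genes. Symbols were found for 28230 of 28293 identifiers in GENCODE M21, and 63 were not matched.

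The KO libraries were set against the WT libraries in edgeR 4.0.16 (R 4.3.3), with TMM scaling, the default low-count filter and a quasi-likelihood test on genotype alone, fitted on all genes with Benjamini-Hochberg adjustment over 15081 tested genes. Fold changes are KO over WT. The standard error was taken from the fold change and its F statistic. CPM used library totals, and TPM used the union of annotated exons. Promoter windows came from RefSeq (GRCm38.p6).

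Values in all 6 libraries are given for members changed at least 2-fold, for Tfeb, Tfe3 and Mcoln1, and for the most abundant member of each class per length. In each wider list the 2 largest increases and decreases at 5 CPM or more are named, except 1 that is not reported here. The members and lists were chosen with earlier results of these data known. Alternatives were DESeq2 size factors, library totals, upper-quartile scaling, other low-count filters, the DESeq2 1.42.0 Wald test, limma-voom (limma 3.58.1), a replicate block, a minimum change of 1.5-fold, and the omission of each library in turn. Figures were drawn with matplotlib 3.10.9.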

Additional observations from a re-analysis of the deposited data

How the results depend on the processing

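The number of members called was 32, and it was 32 to 34 under the other scalings, filters and tests and without each library in turn. These counts include Ctsk, which passed the low-count filter of the main fit through KO only. Without Ctsk, 31 of 35 tested members were called in the main fit, against 75.1% of all tested genes. With a 1.5-fold minimum, 22 members were called (20 higher and 2 lower), 47 wider lysosomal genes in place of 90 (42 in place of 66 higher and 5 in place of 24 lower), and 7268 genes called in KO against WT in place of 11330. The median log2 fold change of the members (0.64) was 0.72 under library totals alone, 0.70 under upper-quartile scaling, 0.61 with no low-count filter, 0.67 with a minimum of 1 CPM, and 0.60 to 0.70 without each library. Library totals alone moved the median of all tested genes to 0.09. The sign was reversed for Ctsz without KO replicate 3 (−0.03, with a range of −0.03 to 0.12 over the omitted libraries) and for Atp6v1b2 under library totals (0.05) and upper-quartile scaling (0.04), and neither gene was called in these fits; the cause was not tested. With the replicate number as a block, 32 members, 93 wider genes and 11697 genes were called. The numbers share no stated origin, and the deviations of same-numbered KO and WT libraries from their group means correlated at 0.285, −0.124 and 0.252, so only KO replicate 1 matched its own number best. The members with the fewest counts were Ctsc, which was not tested, and Cd68, which was called without KO replicate 1 alone (0.71, adjusted p in edgeR = 0.05 after rounding).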
